A study of Mus musculus with 4 samples.

Results

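The data described here are the levels of 10 genes, the immediate early genes *Egr1*, *Egr2*, *Egr3*, *Nr4a1*, *Fos*, *Jun*, *Junb*, *Ier2* and *Dusp2* together with *Myc*, in antigen-specific mouse B cells of the germinal centre (GC). They were taken by name from the 32285 genes of the mRNA matrices, all 10 were found, and the rule uses no measured value. The cells came from MD4 donors, whose B cell receptor transgene recognises lysozyme of hen egg (HEL). After transfer they were recovered from the spleens of 6 CD45.1+ recipient mice on day 8 after immunization with sheep red blood cells coupled to HEL. In every recipient the CD45.1+ transferred cells were Dock8wt/wt without a further transgene. The CD45.2+ transferred cells carried a BCL2 transgene, BCL2.Tg, whose expression is restricted to B cells, and were Dock8wt/wt in 3 mice and Dock8cpm/cpm in the other 3 (cpm is an ENU-induced mutation that the study's methods treat as DOCK8-null). HEL-binding CD95+ cells of the 6 spleens were marked with 1 hashtag antibody per mouse, pooled, and sorted into a CD45.1+ and a CD45.2+ fraction, each of which gave 1 mRNA and 1 hashtag library. A difference between the fractions therefore holds the library, the transgene and the allotype at once, and these cannot be told apart. The labels give no age for the mice.

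Immediate early genes are transcribed within minutes of a stimulus without new protein synthesis, in B cells after engagement of the antigen receptor, CD40 or cytokine receptors. EGR1, EGR2 and EGR3 are zinc finger transcription factors, NR4A1 is an orphan nuclear receptor, FOS, JUN and JUNB are subunits of the dimeric factor AP-1, IER2 is a nuclear protein of the same early wave, and DUSP2 is a phosphatase that dephosphorylates MAP kinases in the nucleus. MYC drives growth and cell cycle entry, and in the GC it is known as a mark of the few light zone (LZ) cells that have been selected with T cell help before they return to the dark zone (DZ) and divide.

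In all, 9692 cells were kept, 6488 CD45.2+ and 3204 CD45.1+. The CD45.2+ cells numbered 2007, 2607 and 1672 in the Dock8wt/wt mice and only 57, 44 and 101 in the Dock8cpm/cpm mice, with 342465 to 18036775 UMIs (unique molecular identifiers, that is counted mRNA molecules) per mouse. The CD45.1+ cells numbered 339 to 947 per mouse. The hashtag calls set aside 8048 of 14617 CD45.2+ and 1562 of 4857 CD45.1+ barcodes as doublets, and 6 barcodes were kept in both fractions. In the summed LZ and DZ cells *Bcl2* had 80.1 to 137 CPM (counts scaled to the total of each library) in the CD45.2+ and 6.62 to 12.2 CPM in the CD45.1+ fraction of the Dock8wt/wt mice. The reads were aligned to mm10, so this is the count of the mouse gene. Whether reads of the transgene are among it was not tested. *Dock8* itself had 104, 87.0 and 62.7 CPM in CD45.2+ cells of the 3 Dock8cpm/cpm mice and 99.6, 115 and 97.8 CPM in those of the Dock8wt/wt mice, so the *Dock8* mRNA level does not check the genotype label. Of the B cell markers, the antigen receptor subunit *Cd79a* was at 1534 to 2232 CPM and *Ms4a1*, which encodes CD20, at 1254 to 1512 CPM in CD45.2+ LZ and DZ cells of the 6 mice.

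The regulatory sequence at the start of the members held in the RefSeq promoter table used here is shown first, because such genes are known for short response elements close to the start. Promoters were matched for 6 of the 10 genes (*Egr2*, *Nr4a1*, *Fos*, *Jun*, *Junb* and *Dusp2*). The 120 bases from position -130 to -11 before the transcription start (GRCm38.p6, 5′ to 3′ on the strand of the gene) are printed for the 5 genes in which the window holds a match, and none of these windows lies in an annotated exon of its gene (GENCODE M21). Those of *Egr2*, for which 1 of several starts is shown, and of *Nr4a1* lie inside the span of longer transcripts of the gene, between exons. Capitals mark the CArG box, the site of serum response factor, the letters TGACG of the cyclic AMP response element on either strand, and the letters TGACATCA, the element known from *Jun*, on either strand. The windows are those of *Egr2* at chr10:67537739-67537858 on the plus strand, *Fos* at chr12:85473760-85473879 on the plus strand, *Nr4a1* at chr15:101266716-101266835 on the plus strand, *Jun* at chr4:95052233-95052352 on the minus strand and *Junb* at chr8:84978759-84978878 on the minus strand.
Egr2: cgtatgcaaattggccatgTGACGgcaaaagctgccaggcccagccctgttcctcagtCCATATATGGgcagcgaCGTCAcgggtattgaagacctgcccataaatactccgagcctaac
Fos: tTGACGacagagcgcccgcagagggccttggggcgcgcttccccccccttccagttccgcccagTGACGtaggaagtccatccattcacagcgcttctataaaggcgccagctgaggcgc
Nr4a1: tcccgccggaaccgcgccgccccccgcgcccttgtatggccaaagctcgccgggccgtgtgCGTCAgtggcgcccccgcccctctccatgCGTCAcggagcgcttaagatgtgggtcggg
Jun: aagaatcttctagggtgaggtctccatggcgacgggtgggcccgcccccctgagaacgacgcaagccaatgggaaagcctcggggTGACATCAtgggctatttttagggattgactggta
Junb: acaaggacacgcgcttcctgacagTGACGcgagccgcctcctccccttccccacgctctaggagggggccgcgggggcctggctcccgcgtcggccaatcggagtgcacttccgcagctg
The *Egr2* window held a CArG box 72 bases before the start with a TGACG on each side of it, at -111 and at -55. Among the 32851 promoter windows of 300 bases in the reference, 1.63% hold a CArG box, 20.8% hold TGACG and 3.62% hold TGACATCA. A match is a string of letters, and no binding was measured here.

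Levels were read as CPM of the counts summed per mouse over each of 16 clusters of cells, which were made without the 10 genes among the features and named by the marker lists that the study itself drew from these libraries. Since clusters come from the cells' own counts, the values by cluster are a description with no test, and mean ± SD over the 3 Dock8wt/wt mice is given. *Egr1*, *Egr2*, *Egr3* and *Dusp2* were highest in the cluster that shared its markers with the LZ2 and LZ4 lists, called LZ2 to LZ4 here (507 CD45.2+ cells of Dock8wt/wt mice). *Egr1* stood there at 54.7, 101 and 62.4 CPM, 72.9 ± 25.0, against 35.0 ± 8.67 in DZ2 and 13.3 ± 5.09 in LZ1. The lowest of these mice lay above the 43.1 CPM that DZ2 reached at most, mouse 2 was the highest, and only the small T cell cluster overlapped. *Egr3* was at 41.7, 35.7 and 49.5 CPM in LZ2 to LZ4, 16.0 ± 11.04 in LZ1 and 8.62 ± 4.58 in DZ2, and no mouse of another cluster reached the lowest LZ2 to LZ4 value. *Dusp2* had 268, 262 and 211 CPM in LZ2 to LZ4 and 171, 167 and 147 CPM in DZ2, again without overlap, and its DZ2 level was closer to that of LZ2 to LZ4 than for the other 3 genes. *Egr2* was sparse, with 35 counts in LZ2 to LZ4 and 8.29 ± 6.78 CPM, and its range there (2.61 to 15.8) overlapped that of LZ1 at 3.96 ± 2.25.

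**Figure D1:**
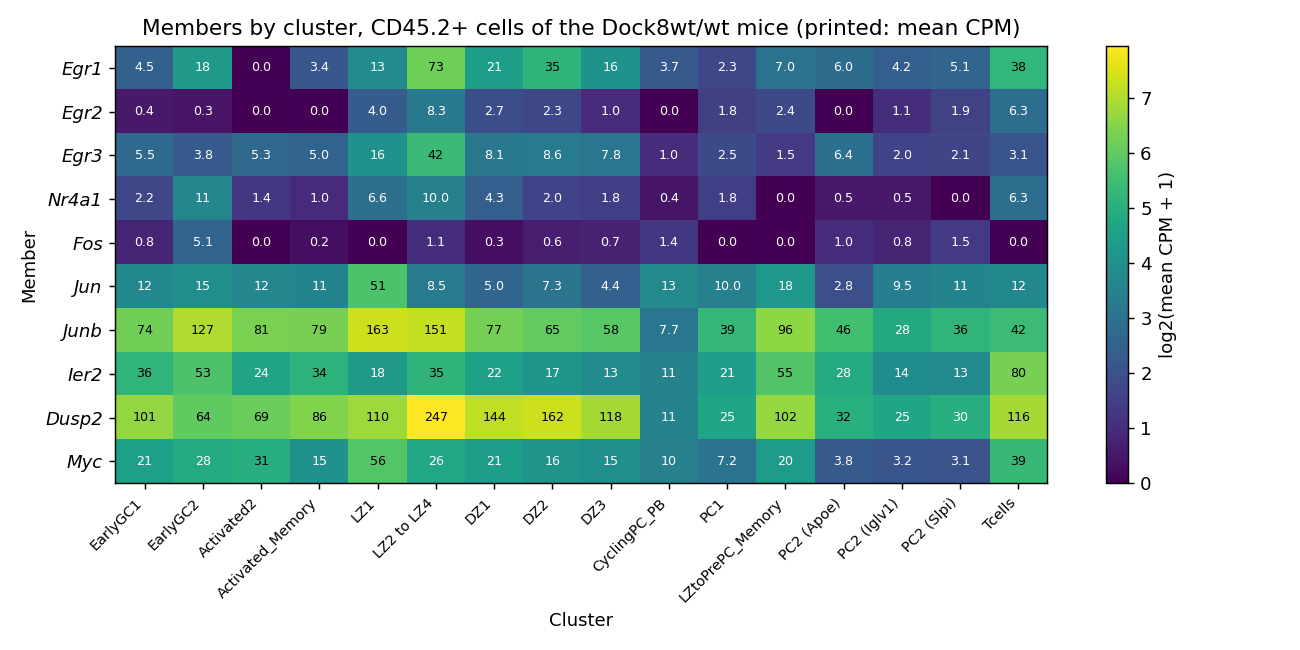
Mean CPM over the 3 Dock8wt/wt mice of the 10 members (rows) in the clusters of CD45.2+ cells (columns), with colour giving log2(mean CPM + 1) and the printed number the mean CPM. *Egr1*, *Egr2*, *Egr3* and *Dusp2* peak in LZ2 to LZ4, *Jun*, *Junb* and *Myc* in LZ1, and most plasma cell columns are low.

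*Myc*, *Jun* and *Junb* were highest in the other LZ cluster, LZ1, which shared markers such as *Il4i1*, *Mir155hg* and *Ccnd2* with its list. It held 258 CD45.2+ cells of these mice, which are part of the pooled LZ state. *Ighd* was also among its highest marker genes, as it was in the cluster EarlyGC1. The study describes the light zone group of this name as the most similar to naive B cells. Whether the cells of this cluster had been selected with T cell help was not tested. *Myc* was at 52.3, 62.9 and 53.7 CPM in LZ1 and at 31.3, 12.7 and 34.5 CPM in LZ2 to LZ4, so the light zone clusters did not overlap. The next cluster was that of T cells with 39.3 ± 17.7 CPM on 9 counts. *Jun* was at 32.1, 58.0 and 62.0 CPM in LZ1 and at 5.21, 5.10 and 15.1 CPM in LZ2 to LZ4, and no other cluster of this fraction reached the lowest LZ1 value. *Junb* did not separate the pair of clusters, with 163 ± 10.9 CPM in LZ1 and 151 ± 21.4 CPM in LZ2 to LZ4, whose ranges overlapped, followed by EarlyGC2 at 127 ± 1.02 CPM. The AP-1 subunits therefore differed in pattern, *Jun* being low in LZ2 to LZ4 and *Junb* high in both.

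*Ier2*, *Nr4a1* and *Fos* had their highest mean in EarlyGC2 once T cells and the shallow cluster LZtoPrePC_Memory are set aside. *Ier2* had 52.6 ± 10.4 CPM in EarlyGC2, 35.6 ± 2.58 in EarlyGC1 and 34.9 ± 9.24 in LZ2 to LZ4, and its highest values, 79.8 ± 29.6 CPM in T cells and 54.7 ± 10.9 in the shallow cluster LZtoPrePC_Memory, rest on 19 and 23 counts. *Nr4a1* had 11.2 ± 9.58 CPM in EarlyGC2, 9.95 ± 5.15 in LZ2 to LZ4 and 6.61 ± 8.59 in LZ1, ranges that all overlapped. By state its mean was highest in the LZ, at 8.16 ± 4.09 CPM against 2.83 ± 1.80 in early, activated and memory cells and 2.66 ± 0.463 in DZ, and the range of the LZ overlapped that of the early, activated and memory cells. *Fos* was close to absent, with 14 counts in EarlyGC2 (5.10 ± 2.85 CPM), 3 in LZ2 to LZ4 and 0 in LZ1. The plasma cell (PC) clusters were low for *Dusp2* (means of 10.8 to 32.3 CPM), *Egr3* (6.43 CPM at most) and *Myc* (10.0 CPM at most), as the plot of members by cluster shows.

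With clusters pooled into states, the order of levels differed between members. In CD45.2+ cells of the Dock8wt/wt mice *Egr3* was at 31.1 ± 4.17 CPM in LZ, 8.30 ± 2.42 in DZ, 5.17 ± 0.933 in early, activated and memory cells (E/A/M) and 2.09 ± 0.438 in PC and plasmablasts (PC/PB), and LZ did not overlap any other state. *Dusp2* was at 182 ± 47.2 CPM in LZ and 148 ± 10.3 in DZ, which overlapped, then 88.2 ± 4.86 in E/A/M and 26.3 ± 7.47 in PC/PB, both separate. *Egr1* was at 48.9 ± 27.8 CPM in LZ and 27.1 ± 5.33 in DZ, which overlapped, while E/A/M with 5.78 ± 1.61 and PC/PB with 4.51 ± 3.10 lay below both and overlapped each other. *Ier2* was instead highest in E/A/M among these B cell states, at 36.4 ± 5.34 CPM, followed by 27.5 ± 1.91 in LZ and 18.0 ± 3.34 in DZ, with no overlap between these neighbours. Most molecules of a member lay outside the LZ in the CD45.2+ fraction, where LZ cells were 12.2% of the cells of these mice and held 9.40% of all their UMIs, 33.4% of the *Egr1* counts, 37.4% of *Egr3*, 45.16% of *Egr2*, 19.5% of *Myc*, 18.9% of *Dusp2* and 10.5% of *Ier2*. The DZ held 46.2% of the *Egr1* and 42.9% of the *Dusp2* counts. In the CD45.1+ fraction LZ cells were 24.6% of the cells with 13.8% of the UMIs, and held 59.1% of the *Egr1*, 60.7% of the *Egr2*, 60.8% of the *Egr3* and 51.6% of the *Nr4a1* counts.

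**Figure D2:**
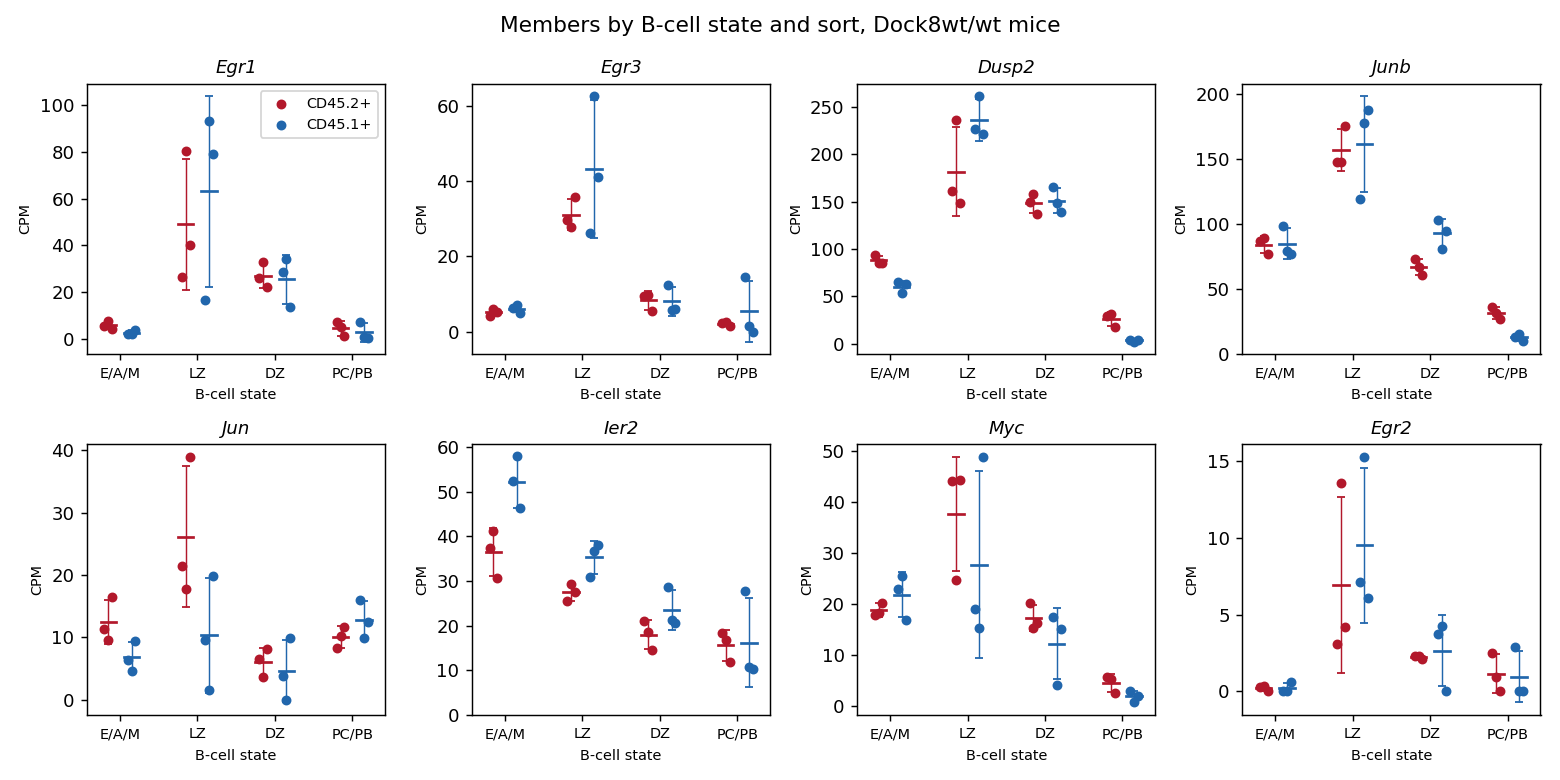
CPM per mouse (points), mean (line) and SD (bar) of 8 members in 4 B cell states, for both fractions of the 3 Dock8wt/wt mice. *Egr3* of CD45.2+ cells lies at 27.9 to 35.8 CPM in LZ and at 9.80 CPM or less in every other state, and *Dusp2* and *Junb* in PC/PB are higher in CD45.2+ than in CD45.1+ cells.

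In the CD45.1+ fraction the leading clusters of B cells were the same for 7 of the members. LZ2 to LZ4 led for *Dusp2* (246 ± 16.5 CPM), *Egr1* (70.1 ± 46.8), *Egr3* (48.4 ± 17.5) and *Egr2* (10.5 ± 4.55), here over 424 cells. LZ1 led for *Myc* (68.8 ± 20.1 CPM), *Jun* (63.6 ± 31.3) and *Junb* (164 ± 55.3, beside 161 ± 37.2 in LZ2 to LZ4, with overlap), in this fraction with at least 10 cells in only 2 mice and 29 cells in all. *Egr1* varied most among mice, from 16.2 to 98.5 CPM in LZ2 to LZ4.

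A finer view came from clustering at resolution 1.2 with the 10 genes kept among the features, a setting added after the data had been seen. Since the genes then shaped the clusters, what follows is only a description of how the LZ2 to LZ4 cells divided. A cluster of 326 cells, 312 of them from LZ2 to LZ4, took the name LZ2, and 109 of its cells were CD45.2+ cells of Dock8wt/wt mice. In these it had 159 CPM of *Egr1*, 159 of *Egr3*, 401 of *Dusp2*, 298 of *Junb*, 77.7 of *Ier2*, 35.4 of *Nr4a1* and 99.2 of *Myc*. The remaining cluster, named LZ4, with 423 such cells, had 47.5 CPM of *Egr1*, 7.74 of *Egr3*, 197 of *Dusp2*, 110 of *Junb*, 20.3 of *Ier2*, 2.20 of *Nr4a1* and 7.75 of *Myc*. *Jun* did not follow, with 7.47 CPM in LZ2 and 6.88 in LZ4, and stayed highest in LZ1 at 52.2. *Fos* was at 0 in LZ2. Of the 109 cells, 11, 78 and 20 came from the 3 mice, so mouse 2 gave most of them.

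To see which members were found in the same cell, each cell was reduced at random to 2000 UMIs to put all on an equal depth, which left out 7 shallower CD45.2+ LZ and DZ cells of the Dock8wt/wt mice. Among 502 CD45.2+ LZ2 to LZ4 cells of these mice, 41.2% had no molecule of any member, 39.2% had 1 member, 13.3% had 2, 3.19% had 3 and 2.99% had 4 or more. *Egr2* was seen in 16.3% of the 49 cells with *Egr1* and in 0.883% of those without it. *Egr3* was seen in 26.5% of the cells with *Egr1* and in 3.75% of those without. In this cluster the 397 CD45.1+ cells had shares of 12.8% against 0.559% for *Egr2* and 28.2% against 3.91% for *Egr3*. Some other pairs also exceeded the product of their shares, such as *Egr2* with *Egr3* (6 cells, product 0.717) and *Egr3* with *Myc* (4 cells, product 0.717). *Nr4a1*, seen in only 4 cells, was found with *Egr1*, *Egr2* and *Egr3* in 3 each, where the products give 0.390, 0.0956 and 0.239. The pairs given next lay closer to the product. *Junb* and *Dusp2* were seen together in 51 of the 502 cells, where the product of their shares gives 43.5, and *Dusp2* and *Ier2* in 12, where it gives 10.98. *Jun*, seen in only 6 of the 502 cells, was found with *Egr1* or *Junb* in 0 cells, where the products give 0.586 and 1.37. In LZ1, where 22 of 258 cells had *Jun*, it was seen with *Junb* in 11, where the product gives 4.09. *Myc* was seen in 1.43% of the 210 CD45.2+ LZ2 to LZ4 cells with no other member (exact 95% binomial interval 0.296% to 4.12%), 1.52% of the 197 with 1, 3.03% of the 66 with 2 and 13.8% of the 29 with 3 or more (3.89% to 31.7%). In LZ1 the *Myc* share was 7.01% of 157 cells with no other member and 6.76% of 74 with 1, then 6 of 20 cells with 2 and 2 of 7 with 3 or more. Cells are not replicates, the intervals cover counting error only, and in LZ2 to LZ4 only 1 mouse had at least 10 cells with 3 or more other members, so these shares carry no test.

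The share of thinned cells with a *Myc* molecule was 9.59% ± 1.84 (SD, n = 3 mice) in LZ1, 3.51% ± 1.71 in LZ2 to LZ4, 3.02% ± 0.508 in DZ and 3.13% ± 0.566 in E/A/M. In PC/PB, the state with the lowest mean *Myc* level, it was 0.647% ± 0.429. This state includes the cluster CyclingPC_PB, and free RNA was not measured, so the value is a comparison and not a background. For *Egr1* the shares were 7.23% ± 3.70 in LZ2 to LZ4, 1.22% ± 0.332 in LZ1, 4.06% ± 1.03 in DZ and 0.982% ± 0.629 in PC/PB, so the LZ1 share of *Egr1* was close to that of PC/PB. Before thinning, the *Myc* shares were 22.02% in LZ1, 7.15% in LZ2 to LZ4 and 3.53% in PC/PB, whose cells had 7630 to 9487 UMIs in the median of each mouse against 4831 to 5933 in LZ2 to LZ4. At least 3 members together were seen in 6.40% ± 0.331 of LZ2 to LZ4 cells and 0.206% ± 0.357 of PC/PB cells.

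The genes whose levels followed those of a member most closely over the 16 clusters were named by the correlation of log2(CPM + 1) in CD45.2+ cells of the Dock8wt/wt mice, over 7779 genes with at least 20 CPM in a cluster. The points share one library and are not independent, so r is a description. *Junb* was followed by *Bcl3* (r = 0.95), *Nfkbie* (0.94) and *Relb* (0.93), all parts of the NF-kB system and all highest in LZ1. *Dusp2* was followed by *Lpxn* (0.98), *Rgs18* (0.95) and *Tmem131* (0.94), which like it were highest in LZ2 to LZ4. *Egr3* was followed by *Havcr1* (0.92), *Bcl2a1b* (0.90) and *Fmnl3* (0.88), and *Egr1* by *Spen* (0.90), *Gnl1* (0.89) and *Trerf1* (0.88). *Myc* was followed by *A930005H10Rik* (0.93), *Rpl9-ps6* (0.93) and *Rack1* (0.92), whose protein sits on the ribosome, of which none was highest in LZ1. *Ier2* was followed by *Kbtbd11* (0.95), *Zbtb7b* (0.94) and *Tmc6* (0.93), *Nr4a1* by *Snhg16* (0.86), *Rida* (0.85) and *Polr2e* (0.84), and *Jun* by *Tmcc3* (0.77), *Irgm1* (0.73) and *Fcrl5* (0.71). For *Egr2*, which like *Fos* is sparse, the nearest genes were *Traf4* (0.80), *Atp6v1h* (0.78) and *Cstf2t* (0.77), and for *Fos*, which had the lowest values, *Crip2* (0.66), *Myadm* (0.62) and *Cep57* (0.61). Among members, r was 0.82 for *Egr3* with *Dusp2*, 0.80 for *Junb* with *Dusp2* and 0.75 for *Egr1* with *Egr2*, and -0.30 for *Egr1* with *Jun*.

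Whether the members followed the cell cycle was asked by comparing LZ and DZ cells called S or G2M with those called G1, in CD45.2+ cells of the 3 Dock8wt/wt mice with mouse as a block. The phase lists hold none of the 10 genes. Of the 9 members tested, 8 were lower in S or G2M cells and 0 were higher, where 18.1% of the 9912 genes tested were called lower and 22.7% higher (edgeR quasi-likelihood test, Benjamini-Hochberg adjusted p under 0.05). The log2 fold changes are S or G2M minus G1. *Jun* was at 6.89, 4.06 and 9.77 CPM against 21.5, 20.7 and 35.9 CPM (-1.98, SE 0.25, adjusted p = 5.01e-12). *Junb* was at 77.4, 78.1 and 67.8 CPM against 131, 142 and 159 CPM (-0.96, SE 0.11, adjusted p = 4.39e-13). Neither gene overlapped between phases, as was so for 48.5% of all genes tested. *Egr3* (-0.95, adjusted p = 0.000226), *Myc* (-0.70, adjusted p = 0.00165), *Egr2* (-1.03, adjusted p = 0.0461), *Egr1* (-0.53, adjusted p = 0.0350), *Ier2* (-0.50, adjusted p = 0.0344) and *Dusp2* (-0.26, adjusted p = 0.0403) were also called. The call of *Egr1* was lost without mouse 2, where its value was 0.22, and those of *Egr2*, *Ier2* and *Dusp2* were each lost in 5 to 7 of the alternatives, while DESeq2 called only *Jun* and *Junb*.

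Zone and phase moved together in this comparison. G1 took 1.63%, 1.16% and 3.14% of the DZ cells of the 3 mice and 81.2%, 76.9% and 71.4% of their LZ cells. The comparison was therefore repeated in LZ cells alone, an alternative added after the data had been seen. There 0 of the 7 members tested were called by edgeR, where 1.17% of 6560 genes were called, and DESeq2 called 0. An unadjusted p under 0.05 was found for 2 members and for 540 of the 6560 genes. Of the 7 members, 6 had a higher value in S or G2M cells. *Egr3* was at 67.6, 35.0 and 66.3 CPM in S or G2M cells of the LZ and 20.4, 25.96 and 22.7 CPM in its G1 cells (log2 fold change 0.99, SE 0.29, adjusted p = 0.0505), the opposite direction from the comparison over both zones. LZ cells of the S or G2M and G1 calls had 5935 and 5916 UMIs per cell, and the phase rests on these calls alone, with no other measure of cycling. *Jun* kept a lower value in S or G2M cells (-0.81, SE 0.39, adjusted p = 0.560), with overlap. The S or G2M cells of the zones together also held 10805 UMIs per cell against 5965 in G1 cells, so that a CPM value and a count per cell differ: *Junb* had 0.804 molecules per S or G2M cell and 0.855 per G1 cell, and *Dusp2* had 1.64 and 1.16.

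**Figure D3:**
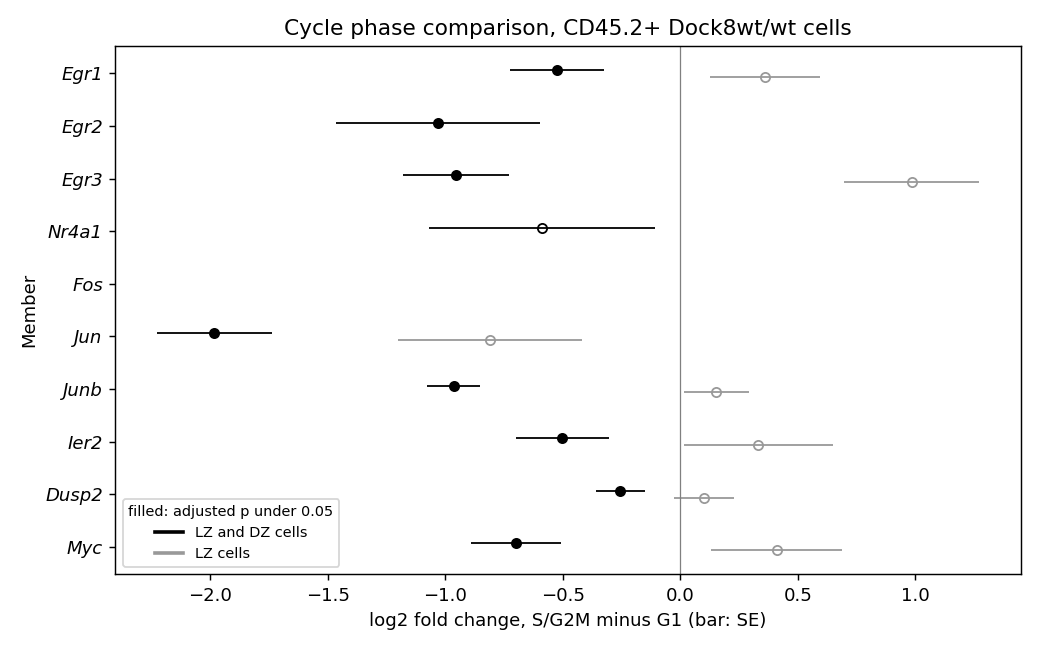
Log2 fold change of each member between S or G2M and G1 cells (x axis, bar SE) in LZ and DZ cells (black) and in LZ cells alone (grey), CD45.2+ cells of the Dock8wt/wt mice; filled points have an adjusted p under 0.05. Over both zones every tested member lies below 0, from -1.98 for *Jun* to -0.26 for *Dusp2*, and in LZ cells alone every tested member but *Jun* lies above 0.

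The lists of related genes split in the phase comparison over both zones. Of 32 tested genes of an early response list, 17 were lower in S or G2M cells, among them *Bhlhe40* (-2.21), *Tnfaip3* (-1.39) and *Irf4* (-1.34), and 5 were higher, *Pim1*, *Dusp5*, *Gadd45b*, *Klf10* and *Dusp1*, with a list median of -0.48 beside -0.01 over all genes tested. Of 34 Myc target genes, 20 were higher, among them *Ranbp1* (1.67) and *Ncl* (0.51), and 1 was lower, *Ccnd2* (-2.65), a D-type cyclin, with a list median of 0.49. Of the partners and antagonists of MYC, *Mxd3* was higher (3.62) and *Mxd4*, *Mga*, *Max* and *Mxd1* were lower. In LZ cells alone 0 genes of these lists were called by edgeR and by DESeq2. With a list of heat shock genes added, 10 of 69 genes tested had an unadjusted p under 0.05, beside 540 of 6560 over all genes.

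The fractions were compared in the LZ and DZ cells of the 3 Dock8wt/wt mice, CD45.2+ minus CD45.1+, with mouse as a block, since both fractions come from the same animals. Of 9 members tested, 4 were lower in CD45.2+ cells and 0 were higher, where 6.93% of 9889 genes were called lower and 7.88% higher (edgeR, adjusted p under 0.05). *Egr3* was at 12.99, 16.5 and 10.6 CPM in CD45.2+ and 17.1, 33.1 and 17.7 CPM in CD45.1+ cells (log2 fold change -0.77, SE 0.19, adjusted p = 0.00176). *Junb* was at 85.2, 96.8 and 79.9 against 109, 127 and 125 CPM (-0.47, SE 0.09, adjusted p = 1.24e-05). *Ier2* was at 21.8, 22.5 and 16.6 against 29.4, 28.7 and 26.3 CPM (-0.48, SE 0.16, adjusted p = 0.0249). In these 3 genes every CD45.2+ value lay below every CD45.1+ value, and the groups failed to overlap in 25% of all genes tested. *Dusp2* was at 151, 187 and 139 against 186, 203 and 166 CPM (-0.22, SE 0.07, adjusted p = 0.0169), lower within each mouse but with overlap between mice.

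*Egr1* (-0.29, SE 0.13, adjusted p = 0.149), *Egr2* (-0.49, SE 0.39), *Nr4a1* (-0.40, SE 0.38), *Jun* (0.60, SE 0.30, adjusted p = 0.188) and *Myc* (0.19, SE 0.18, adjusted p = 0.570) did not pass the test, and *Fos* had too few counts. *Junb* was called in all 13 alternatives, without the mouse block too (adjusted p = 0.00801), while without the block *Egr3* (0.0822), *Ier2* (0.128) and *Dusp2* (0.282) were not. DESeq2 called *Junb* but not *Dusp2*, and gave no adjusted p for *Egr3* and *Ier2*. *Egr3* also lost its call without mouse 2 of the Dock8wt/wt mice, and *Ier2* and *Dusp2* lost theirs without mouse 1 and without mouse 3. CD45.2+ cells held more UMIs, 9290 per LZ or DZ cell against 5355, and per cell the order was the reverse, with 0.817 molecules of *Junb* against 0.650, 1.496 of *Dusp2* against 0.978 and 0.126 of *Egr3* against 0.119. The fractions also differed in zone, since LZ cells made 28.7%, 52.4% and 25.3% of the CD45.2+ and 49.3%, 67.7% and 44.7% of the CD45.1+ LZ and DZ cells. The T cell list had 35.0 to 55.9 CPM in CD45.2+ and 62.8 to 83.9 CPM in CD45.1+ LZ and DZ cells. Of its 7 genes, 7 and 5 had counts, with *Cd3g* and *Trbc1* at 0 in CD45.1+. *Lck* of this list was also among the 10 highest marker genes of the LZ2 to LZ4 cluster, so the list is not of T cells alone here. It was the only gene of the list with counts in CD45.2+ LZ cells of 2 Dock8cpm/cpm mice. The hemoglobin list had 50.6 to 60.002 CPM in CD45.2+ and 69.9 to 106 CPM in CD45.1+ cells. The part of both lists in the result was not tested.

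The fractions were then compared within each state. In LZ cells *Jun* was higher in CD45.2+ cells, at 21.5, 17.8 and 39.0 against 9.53, 1.53 and 19.8 CPM (1.46, SE 0.35, adjusted p = 0.00183), and *Dusp2* was lower, at 161, 236 and 149 against 226, 262 and 221 CPM (-0.33, SE 0.11, adjusted p = 0.0453), where 5.06% of 7140 genes were called higher and 3.66% lower. The call of *Jun* was lost without mouse 2 and without the mouse block, and that of *Dusp2* in 8 of 13 alternatives, DESeq2 among them. LZ1, where *Jun* was highest, held 258 of the 765 CD45.2+ LZ cells of these mice, whereas LZ2 to LZ4 held 424 of 457 CD45.1+ LZ cells. Within the LZ2 to LZ4 cluster alone, an alternative added after the data had been seen, 0 of 6 members tested were called by edgeR, where 3.64% of 5966 genes were called, and DESeq2 called 0. An unadjusted p under 0.05 was found for 0 members and for 876 of the 5966 genes. There *Dusp2* was at 268, 262 and 211 against 237, 265 and 237 CPM (-0.03, SE 0.11) and *Egr1* at 54.7, 101 and 62.4 against 16.2, 95.8 and 98.5 CPM (0.01, SE 0.23).

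In DZ cells *Junb* was lower in CD45.2+ cells, at 72.5, 67.0 and 60.8 against 103, 80.8 and 94.1 CPM (-0.48, SE 0.11, adjusted p = 0.00255), the only one of 8 members called where 2.81% of 9513 genes were called lower and 3.63% higher. This call was lost without mouse 3 and by DESeq2. In E/A/M cells *Ier2* was lower in CD45.2+ cells, at 37.3, 41.3 and 30.7 against 52.4, 58.0 and 46.4 CPM (-0.63, SE 0.16, adjusted p = 0.0131), where 2.72% of 9476 genes were called lower and 2.01% higher. Without mouse 1, without mouse 3 and without the block it was not called. *Dusp2*, which was not called, was at 93.8, 85.4 and 85.4 against 64.9, 53.4 and 62.7 CPM (0.43, SE 0.13, adjusted p = 0.0572). Its values did not overlap, as was so for 22.4% of all genes tested. In these E/A/M cells the summed level of the 6 myeloid markers was 27.2 to 39.2 CPM in CD45.2+ and 68.99 to 360 CPM in CD45.1+ cells, with *S100a8* and *S100a9* at 0 in the latter. Their part in the result was not tested.

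In PC and plasmablasts both *Dusp2* and *Junb* were higher in CD45.2+ cells, the other direction from LZ and DZ cells together. The uncalled value of *Dusp2* in E/A/M cells was higher too. In PC/PB *Dusp2* was at 29.6, 31.5 and 17.7 CPM in CD45.2+ and 4.37, 2.27 and 3.88 CPM in CD45.1+ cells (2.55, SE 0.28, adjusted p = 9.47e-09). *Junb* was at 36.3, 31.5 and 26.4 against 13.1, 15.2 and 9.54 CPM (1.19, SE 0.20, adjusted p = 1.84e-05). Neither gene overlapped between the fractions, as was so for 34% of all genes tested. Here 12.5% of 9116 genes were called higher and 11.6% lower, and the other 4 members tested (*Egr1*, *Jun*, *Ier2* and *Myc*) were not called. Both calls held in all 13 alternatives, DESeq2 and the fit without the block among them. The CD45.1+ values rest on 19 counts of *Dusp2* and 61 of *Junb*. Markers of other cells moved with the fraction here. The summed level of the 7 T cell markers was 7.82 to 17.1 CPM in CD45.2+ and 1.79 to 4.37 CPM in CD45.1+ PC/PB, with *Cd3d* and *Cd3g* at 0 in the latter. That of the 6 myeloid markers was 12.9 to 15.5 against 5.37 to 11.4 CPM, and all 4 hemoglobin genes were at 0 in CD45.1+ PC/PB and at 4.60 to 8.72 CPM in sum in CD45.2+ PC/PB. Their part in the result was not tested. The make-up of PC/PB differed as well, with 227 PC1 and 165 PC2 (Apoe) cells among the 1447 CD45.2+ cells and at most 9 and 5 of them in any mouse of the CD45.1+ fraction, while CyclingPC_PB held 102 of the 1447 and 89 of 521. Within single clusters the mean of *Dusp2* was 25.1 CPM in CD45.2+ and 4.43 in CD45.1+ cells of PC2 (Iglv1), 30.5 and 1.25 in PC2 (Slpi), and 10.8 and 1.63 in CyclingPC_PB. Whether the size of the difference itself differed between states was not tested.

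**Figure D4:**
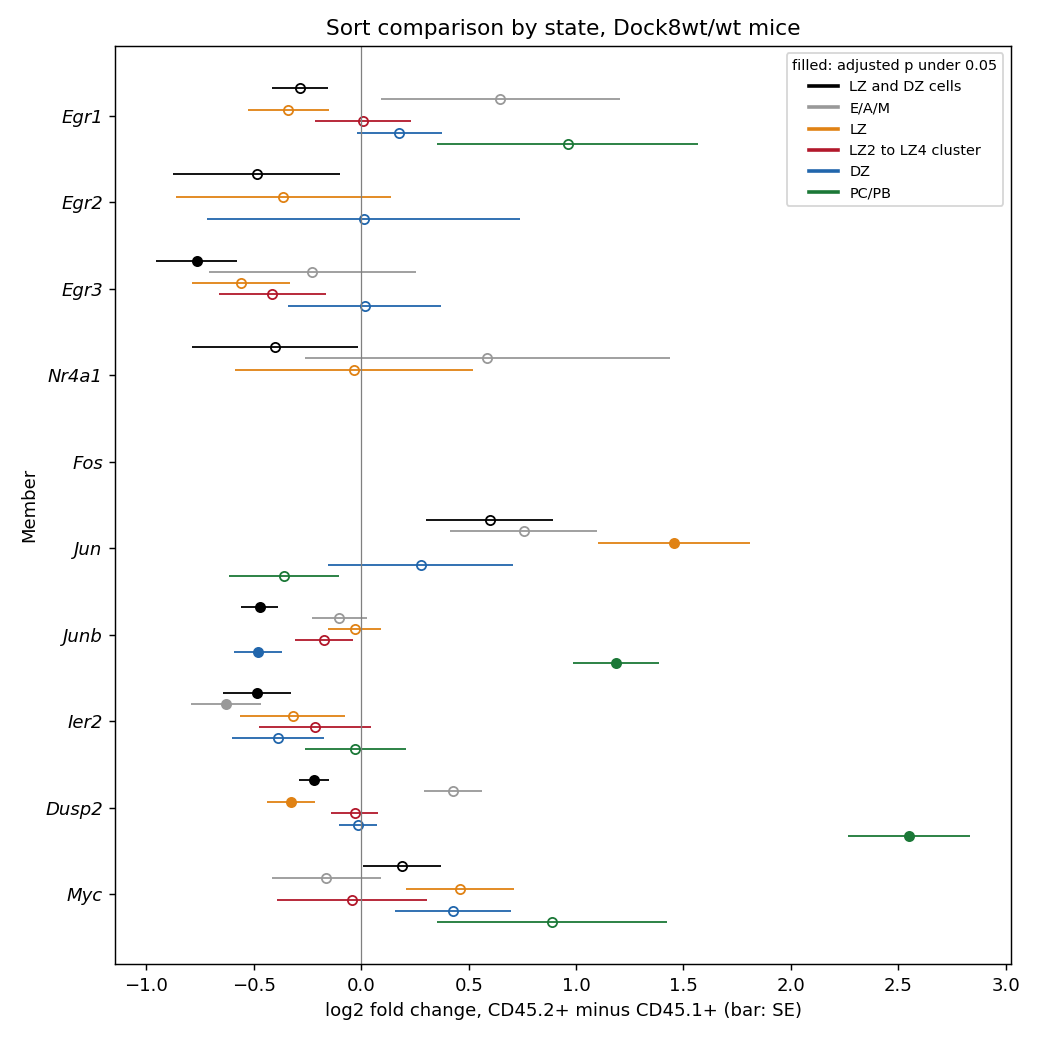
Log2 fold change of CD45.2+ over CD45.1+ fractions in the Dock8wt/wt mice (x axis, bar SE) for each member in LZ and DZ cells together, in 4 states and in the LZ2 to LZ4 cluster; filled points have an adjusted p under 0.05. *Dusp2* lies at 2.55 and *Junb* at 1.19 in PC/PB, while in LZ and DZ cells together both lie below 0, at -0.22 and -0.47.

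Other genes of the same pathways were read in the comparison of LZ and DZ cells. Of 32 early response genes tested, 8 were lower in CD45.2+ cells, the NF-kB subunit gene *Rel* (-0.41), its inhibitors *Nfkbia* (-0.32) and *Nfkbid* (-0.64), *Rgs2* (-0.52), *Mcl1* (-0.32), *Cd69*, *Ier5* and *Dusp4*, and 2 were higher, *Irf4* (0.69, adjusted p = 0.00914) and *Btg2*, with a list median of -0.15, and DESeq2 called 3 genes of the list. Of 34 Myc target genes, 16 were higher and 0 lower, among them *Ddx21* (0.63, adjusted p = 6.51e-12), *Ranbp1* (0.53) and *Ncl* (0.26), with a list median of 0.18 beside -0.004 over all genes, while *Myc* itself was not called. Without the mouse block 4 of the 34 were called, and 8 by DESeq2. Within LZ2 to LZ4 only *Ddx21* was called. In PC/PB, where 12.5% of all genes were called higher and 11.6% lower, the same list had 12 of 34 genes lower and 0 higher, and the early response list had 2 of 30 lower, *Mcl1* and *Dusp4*, and 8 higher, with *Bhlhe40* at 3.85, *Rgs2* at 3.03 and *Rel* at 1.80. Of the heat shock list, which moves with tissue handling, *Hsp90aa1* (0.26) and *Dnajb1* (0.32) of 7 tested were higher in CD45.2+ LZ and DZ cells, and its summed level was 3654 to 4192 CPM in CD45.2+ and 3592 to 3987 CPM in CD45.1+ cells. In E/A/M cells *Hspa8* (-0.60) and *Hsp90ab1* (-0.46) of 7 tested were lower in CD45.2+ cells and 0 were higher, where 2.72% of 9476 genes were called lower. There its summed level was 1783 to 2283 CPM in CD45.2+ and 2403 to 2598 CPM in CD45.1+ cells. In PC/PB *Hsp90aa1* was lower (-0.36). The part of this list in the results was not tested.

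The comparison of genotypes asked whether loss of DOCK8 alters these genes. It was made in CD45.2+ LZ and DZ cells, Dock8cpm/cpm minus Dock8wt/wt, on 35, 18 and 40 cells of the Dock8cpm/cpm mice and 519, 909 and 554 cells of the Dock8wt/wt mice. LZ cells made 60%, 33.3% and 47.5% of these in the Dock8cpm/cpm mice and 28.7%, 52.4% and 25.3% in the Dock8wt/wt mice. LZ1 held 12, 2 and 8 of the 21, 6 and 19 LZ cells of the former, and 89, 106 and 63 of the 149, 476 and 140 of the latter. The part of this make-up in the result was not tested. Of 7 members tested, 0 were called by edgeR, where 0.0212% of 9421 genes were called, and DESeq2 called 0 members. Only *Dusp2* had an unadjusted p under 0.05 (0.0176), as had 555 of the 9421 genes. *Egr1* was at 12.4, 0 and 19.96 CPM in the Dock8cpm/cpm mice and 26.3, 50.3 and 25.2 CPM in the Dock8wt/wt mice (log2 fold change -1.49, SE 0.96, adjusted p = 0.911). All 3 values of the first group lay below all 3 of the second, and the groups failed to overlap in 15.6% of genes tested, and the first group rests on 10 counts against 646. *Dusp2* was at 124, 141 and 111 against 151, 187 and 139 CPM (-0.45, SE 0.18, adjusted p = 0.757), overlapping by mouse 2 of the first group. *Myc* was at 20.7, 16.3 and 34.2 against 24.2, 18.8 and 21.001 CPM (0.19, SE 0.35, adjusted p = 0.973) on 20 counts against 390. *Junb* (0.09, SE 0.21), *Jun* (0.09, SE 0.53), *Egr3* (-0.14, SE 0.59) and *Ier2* (-0.15, SE 0.39) had standard errors larger than the estimate, and *Egr2*, *Nr4a1* and *Fos*, with 1, 4 and 1 counts in the Dock8cpm/cpm mice, were not tested.

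**Figure D5:**
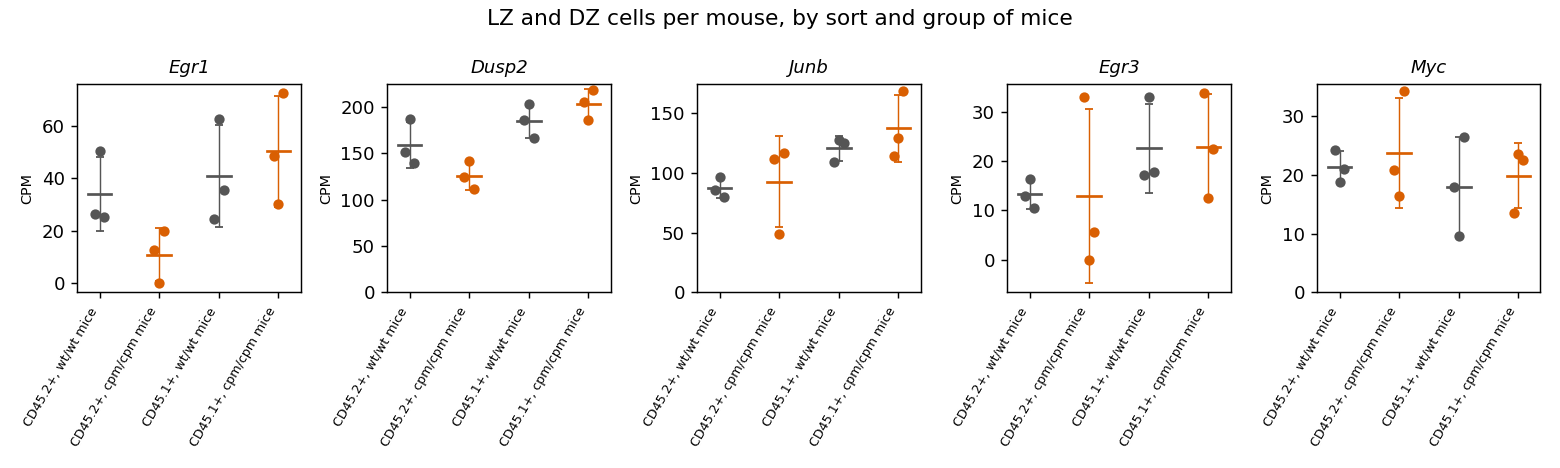
CPM per mouse (points), mean (line) and SD (bar) of 5 members in LZ and DZ cells of CD45.2+ and CD45.1+ fractions, by group of mice; CD45.1+ cells are Dock8wt/wt in both groups. *Egr1* of CD45.2+ cells is 0 to 19.96 CPM in the Dock8cpm/cpm mice and 25.2 to 50.3 CPM in the Dock8wt/wt mice, while the CD45.1+ groups overlap.

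The CD45.1+ cells, Dock8wt/wt in every mouse, served as internal control. Between the same groups of mice 0 of 6 members tested were called in them by edgeR, where 0% of 8155 genes were called and 366 had an unadjusted p under 0.05, and DESeq2 called 0 members. *Egr1* was at 48.4, 30.2 and 72.6 CPM in the mice that held Dock8cpm/cpm cells and 24.5, 62.5 and 35.5 CPM in the others (0.34, SE 0.44), with overlap. *Dusp2* was at 205, 186 and 219 against 186, 203 and 166 CPM (0.14, SE 0.10). The difference CD45.2+ minus CD45.1+ within a mouse was then compared between the groups of mice, with mouse as a block, a fit that shares the CD45.2+ cells of the comparisons above. Of 9 members tested, 0 were called by edgeR, where 0.0112% of 8918 genes were called, and DESeq2 called 0. *Egr1* and *Dusp2* had an unadjusted p under 0.05, as had 501 of the 8918 genes. *Egr1* had a difference of log2 fold changes of -1.88 (SE 0.43, adjusted p = 0.170), which without the filter on low counts was -1.93 with an adjusted p of 0.0262, under the 3-fold hashtag rule -1.19 (0.610) and without the block -1.83 (0.995). *Dusp2* had -0.58 (SE 0.18, adjusted p = 0.562). Of the early response, Myc target, MYC partner and heat shock lists, 0 genes were called by edgeR or by DESeq2 in any of these 3 comparisons. Between genotypes, in CD45.1+ cells and in the fit over both, 10 of 82, 9 of 75 and 7 of 81 list genes tested had an unadjusted p under 0.05. Over all genes tested these were 555 of 9421, 366 of 8155 and 501 of 8918. The smallest adjusted p among the list genes was that of *Rrp9* between the fractions and groups of mice (1.74, adjusted p = 0.170).

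The share of LZ and DZ cells with a molecule was compared per mouse after thinning to 2000 UMIs, by two-sided exact permutation tests over 3 against 3 mice, whose smallest possible p is 0.1. *Egr1* was seen in 0, 0 and 5% of CD45.2+ cells of the Dock8cpm/cpm mice and in 4.25%, 6.87% and 3.07% of those of the Dock8wt/wt mice (exact p = 0.3, adjusted p = 0.6 over 6 tests). *Myc* was seen in 8.57%, 0 and 7.50% against 4.05%, 3.10% and 4.33% (exact p = 0.5, adjusted p = 0.6). At least 3 members were seen in 2.86%, 0 and 2.50% against 3.09%, 3.88% and 2.35% (exact p = 0.3, adjusted p = 0.6). Before thinning, the mean shares were 6.90% against 12.9% for *Egr1* and 15.8% against 12.1% for *Myc*. In CD45.1+ cells the exact p was 1 for *Egr1*, 0.4 for *Myc* and 0.3 for at least 3 members. In the Dock8cpm/cpm mice 1 cell is worth several percent, and 0 of 18 cells, with 3 cells taken as the limit that a count of 0 allows, leaves a share of cells with a molecule of up to 16.7% (exact 95% binomial upper bound 18.5%).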

How the data were processed

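The authors sequenced 2 mRNA and 2 hashtag libraries (10x 3' chemistry), aligned the reads to mm10 and deposited raw UMI counts per gene, or per hashtag, and cell barcode from Cell Ranger 5.0.1, together with a table that names the mouse of each hashtag (mapped here by its text). From these deposited counts, cells were assigned to mice with HTODemux on centred log ratios (quantile 0.99), which also removed doublets, and kept under 10% mitochondrial counts and between 100 and 5500 genes. They were normalised with SCTransform and clustered in Seurat 5.3.0 (3000 variable genes, 30 components, resolution 0.9), with the 10 members left out. Clusters were named by the study's marker lists, drawn from these libraries. S and G2M cells were called from 42 and 52 phase genes.

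Counts were summed per mouse and tested with edgeR 4.0.16 (filterByExpr, TMM, quasi-likelihood test, adjusted over all genes tested), using mice with at least 10 cells in the state compared. Mice of both sexes were used in the study, so 8 sex-linked genes were left out. The sort and phase comparisons pair cells of the same animal, so mouse was a block. Alternatives were DESeq2 1.42.0, no filter on low counts, no block, each mouse left out, other resolutions, log-normalised counts, members kept among the features, stricter cell limits, a 3-fold hashtag rule, and removal of the highest Scrublet scores. On simulated counts with 100 genes changed 2-fold and 100 changed 4-fold, the genotype test recovered 46% and 70% of them, and the sort test 75% and 97%. The changed genes were drawn at random from all genes tested, and apart from the change every mouse had the same mean. These shares therefore do not give the recovery for sparse members.

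All 10 members were named, and for each the 3 genes most alike over clusters. Members and lists were chosen with earlier results of these data known. The mice are separate recipients, but each sort was 1 library. R 4.3.3 and Python 3.11.15 were used.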

Additional observations from a re-analysis of the deposited data

How the results depend on the processing

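Pairing by animal, with mouse as the block, changed how many genes passed. Without the replicate block the sort comparison called 579 genes in LZ and DZ cells (1464 with it), 213 in E/A/M (448), 270 in LZ (622), 134 in LZ2 to LZ4 (217) and 386 in DZ (612), and the phase comparison in LZ cells 15 (77). Among members, leaving out the block ended the calls of *Egr3*, *Ier2* and *Dusp2* between the sorts, of *Ier2* in E/A/M, of *Jun* and *Dusp2* in LZ, and of *Egr1* between phases.

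DESeq2 called 449 genes between the sorts in LZ and DZ cells, 206 in E/A/M, 128 in LZ, 62 in LZ2 to LZ4, 175 in DZ and 817 in PC/PB (2197 by edgeR), 2118 between phases (4045 by edgeR) and 1 in LZ cells, and 5 between genotypes (2 by edgeR). The genotype count was 1 under the stricter cell limits, 1 with the highest Scrublet scores removed, 26 without the filter on low counts and 29 over all B cells other than PC/PB. Without the filter 2 genes were called in CD45.1+ cells (0 with it), and 7 in the fit over sorts and genotypes (1 with it), which gave 0 under the 3-fold hashtag rule, 2 with log-normalised counts and 0 with the highest Scrublet scores removed. In LZ2 to LZ4 the sorts gave 422 genes under the 3-fold hashtag rule and 396 with log-normalised counts. The phase comparison in LZ cells gave 37, 24 and 32 under the hashtag, log-normalised and Scrublet alternatives.

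Leaving out each mouse gave 0 to 12 genes between genotypes, 0 to 2 in CD45.1+ cells, 1 to 11 over sorts and genotypes, 825 to 1241 between sorts, 217 to 430 in E/A/M, 241 to 474 in LZ, 108 to 291 in LZ2 to LZ4, 247 to 539 in DZ and 16 to 33 between phases in LZ cells. In the *Myc* share of CD45.2+ cells the difference ran from -0.079 to 4.21 percentage points (1.53 with all mice), and in the *Egr1* share of CD45.1+ cells from -1.43 to 2.13 (0.0713). At 1000 UMIs these differences were -0.644 and -0.576, and *Egr1* was seen in 0, 0 and 0 against 2.50%, 4.62% and 1.99% of CD45.2+ cells and at least 3 members in 0, 0 and 0 against 0.963%, 1.65% and 0.903%, each with an exact permutation p of 0.1, the smallest that 3 against 3 mice allow (adjusted p = 0.3 over 6 tests).

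Signs turned among the alternatives for several members that were not called, *Jun* and *Myc* among them. Between genotypes *Egr3* ran from -1.93 to 0.53, *Junb* from -0.17 to 0.29 and *Ier2* from -0.37 to 0.06. Over sorts and genotypes *Ier2* ran from -0.23 to 0.35, and between sorts in LZ2 to LZ4 *Egr1* ran from -0.23 to 0.29. Between genotypes *Jun* was -0.038 under the 3-fold hashtag rule and ran from -0.25 to 0.25 with 1 mouse left out, and *Myc* from -0.29 to 0.32. Between sorts *Myc* ran from -0.025 (without Dock8wt/wt mouse 2) to 0.65. Over sorts and genotypes *Jun* was -0.28 and *Myc* -0.018 by DESeq2, and with 1 mouse left out they ran from -0.87 to 0.44 and from -0.37 to 0.35. Between phases *Egr1*, which was called, ran from -0.81 to 0.22, the latter without Dock8wt/wt mouse 2. With the members kept at resolution 1.2 the highest cluster had 159 CPM of *Egr1*, 15.9 of *Egr2*, 159 of *Egr3*, 35.4 of *Nr4a1*, 298 of *Junb*, 77.7 of *Ier2*, 401 of *Dusp2* and 99.2 of *Myc*, since the genes then shaped the cluster. The cause of the other changes was not tested.

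Depth limits the Dock8cpm/cpm values most, with 10 counts of *Egr1* and 20 of *Myc* over 93 cells. A comparison of genotypes in LZ cells alone is not given, since mouse 2 of that group had 6 LZ cells, under the minimum of 10. The hashtag calls set aside more CD45.2+ barcodes than they kept, and Scrublet at its own threshold called 4 cells in each sort, so doublets were judged only by removing the highest scores. Counting from 3' ends does not allow levels to be compared between genes, and both fractions come from single libraries.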
